A study of Homo sapiens with 6 samples.

Results

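The ubiquitin-specific proteases (USPs) were examined in HaCaT, a line of immortal, aneuploid human keratinocytes, with and without knockdown of IQGAP2. Members were the genes whose symbol is USP followed by a number and, in some, a final letter. USP18, a protease for the ubiquitin-like protein ISG15, and USP6NL, which is no protease, were left out. This gave 46 of the 12829 genes in the deposited table, where 49 symbols start with USP (the third symbol left out is USPL1). No measured value separated one member from another in that choice, but the family was picked with earlier results of the same comparison known. Counts and changes over the family are therefore a description, and no test of the family as a set was made.

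The series held 3 libraries in which a short hairpin RNA targeted IQGAP2 (genotype label IQGAP2 knockdown) and 3 control libraries (labels normal control and WT), all from cells grown in DMEM with 10% FBS. The labels do not say whether the control cells carried a hairpin of their own or how many hairpins or clones were used, and they call the libraries biological replicates without saying that each came from its own culture. P-values thus measure how far these libraries vary, possibly for technical reasons alone. The series asks about proliferation and mTOR signalling. Values are FPKM (fragments scaled to gene length and library depth), so that levels can be compared between genes.

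Ubiquitin is a small protein that is attached to other proteins, singly or in chains, and that marks many of them for the proteasome or changes where they go and what they bind. USPs are cysteine proteases that remove it, and they form the largest family of human deubiquitinases. Some act on histones and on DNA repair proteins, some on receptors at endosomes, and some on the ubiquitin chains held at or released from the proteasome. In keratinocytes, as in other dividing cells, many of them are expressed together.

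The recovered reads behind the FPKM values amounted to 12901037 to 15360759 per library in the knockdown group and 13957447 to 15122470 in the control group. IQGAP2, a scaffold protein, was at 0.0196, 0.0328 and 0.0182 FPKM in knockdown replicates 1, 2 and 3, on 2 to 4 reads a library, and at 0.200, 0.198 and 0.190 FPKM in control replicates 1, 2 and 3, on 21 to 24 reads. It lay below the level required for testing, and without that filter its adjusted p was 0.00816 by limma. All 6 keratinocyte markers were in the table, with sums of 4117 to 4498 FPKM in knockdown and 3999 to 4106 FPKM in control libraries. COL17A1, ITGA6, KRT5 and TP63 were higher in the knockdown (log2 changes 1.05, 0.88, 0.37 and 0.17), and KRT14 and CDH1 did not pass. Of 16 markers of fibroblasts, melanocytes, endothelial cells and leukocytes, 6 had a row, and no leukocyte marker did. The fibroblast markers summed to 1.56 to 1.91 FPKM in knockdown and 3.46 to 3.79 FPKM in control libraries. LUM fell to 0.268 ± 0.134 FPKM in the knockdown, against 2.21 ± 0.346 FPKM in the control (log2 change -1.34, adjusted p = 6.4e-06), DCN averaged 0.0426 FPKM in the knockdown, against 0.207 FPKM in the control, and COL1A1 did not pass. Sums of the melanocyte and endothelial markers were under 1 FPKM in every library. The part of these markers in the results on USP genes was not tested. Knockdown replicate 2 differed from its fellows: chi-square over degrees of freedom, on the reads, was 11.3 and 10.5 against them, and 2.10 to 2.49 in the other pairs within a group.

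Summed over the family, USP transcripts were more abundant in the knockdown. The sum over the 46 members was 415, 447 and 424 FPKM in knockdown replicates 1, 2 and 3, and 366, 364 and 360 FPKM in control replicates 1, 2 and 3. As a share of all FPKM this was 0.167% to 0.190% in knockdown and 0.132% to 0.135% in control libraries, and as a share of reads 0.291% to 0.320% in the knockdown, against 0.245% to 0.249% in the control. The groups did not overlap on these measures. Such sums lean on abundant members: USP1, the highest, averaged 49.8 FPKM in the knockdown, against 28.7 FPKM in the control. In bulk RNA, a change in the make-up of the culture and a change in RNA per cell cannot be told apart.

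Of the 46 members, 42 averaged 0.5 FPKM or more across the 6 libraries and were tested; USP2, USP6, USP50 and USP51 lay below. With limma on log2(FPKM + 1) and p-values adjusted over all 11214 genes tested by the method of Benjamini and Hochberg, 23 of the 42 were higher in the knockdown at an adjusted p under 0.05, against 29.5% of all genes tested. USP21 and USP5 were lower, against 27.8% of all genes, and 17 did not pass; 57.4% of all genes passed in either direction. Each log2 change is the knockdown mean minus the control mean of log2(FPKM + 1), a scale that makes changes of weakly expressed genes look smaller than they were. The median change was 0.20 over the 42 members and 0.01 over all genes tested, and the changes of members spanned -0.27 to 0.90. The 3 knockdown libraries, each set against the control mean, had median changes over the members of 0.15, 0.20 and 0.19. For 25 of the 42, every knockdown value lay above every control value (33.7% of all genes tested), and for 4 every knockdown value lay below (31.4%). Most changes were modest: the ratio of group means exceeded 1.5 in 7 of the 23 that rose.

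**Figure D1:**
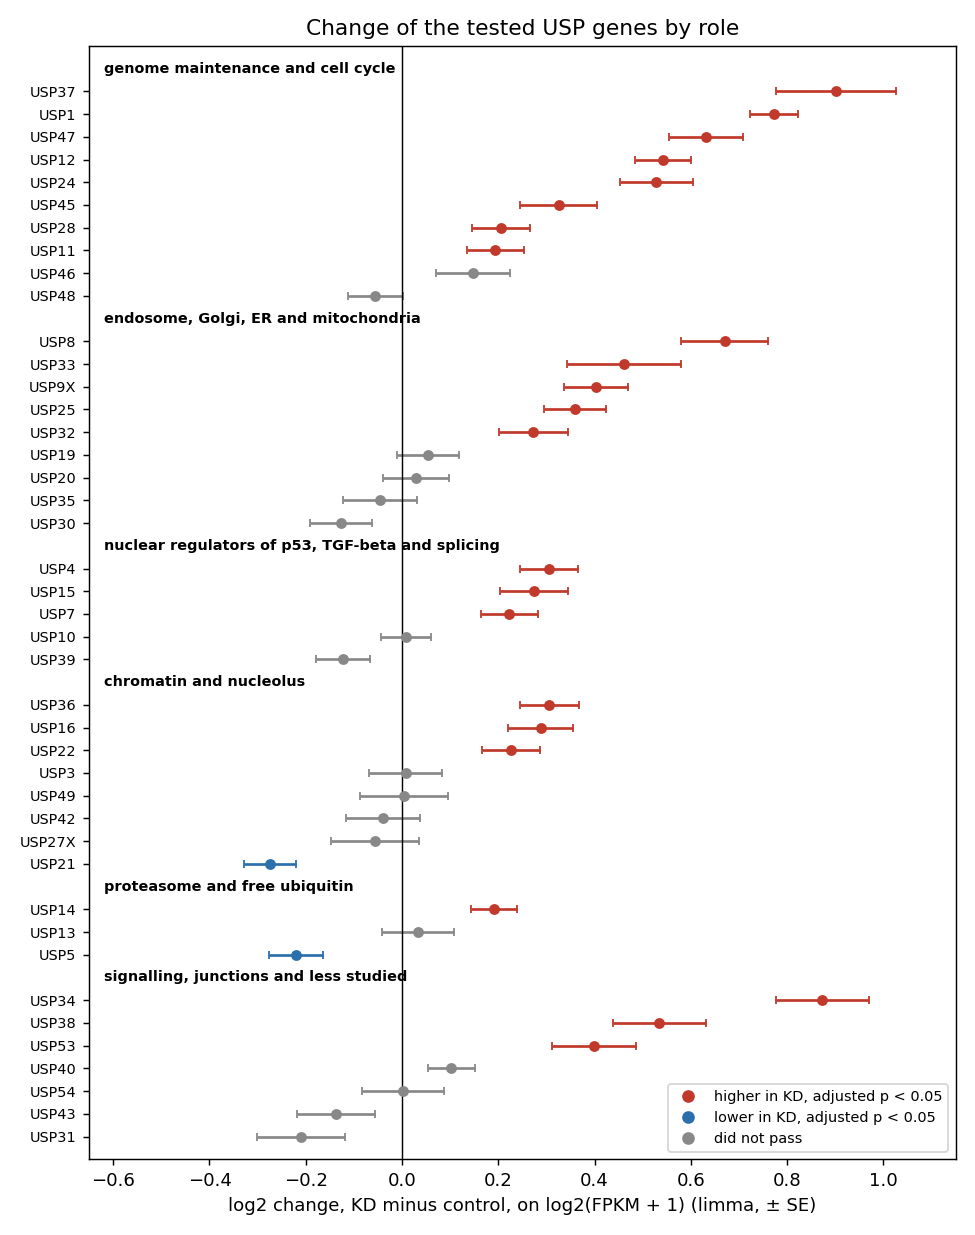
Log2 change (knockdown, KD, minus control, on the log2(FPKM + 1) scale, with the SE of limma) of the 42 tested USP genes, grouped by role. Red points were higher and blue points lower at an adjusted p under 0.05. The changes span -0.27 (USP21) to 0.90 (USP37). Of 10 genes of genome maintenance and cell cycle, 8 lie on the right in red, while 29.5% of all genes tested were higher. Roles were set with earlier results of these data known.

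The largest share of risers was among USPs of genome maintenance and the cell cycle, where 8 of 10 tested rose (80%) and none fell. The median change of the group was 0.43. Over all genes tested 29.5% rose and 27.8% fell. Roles were set with earlier results of these data known, so their ranking is a description. With the trend of change over gene length taken out of each library, 8 of the 10 rose and 1 fell. The faller was USP48 (log2 change -0.18, adjusted p = 0.00941). USP37 (ENSG00000135913, GRCh38 chromosome 2, 218450251 to 218568361, minus strand), which removes ubiquitin from cyclin A and opposes the anaphase-promoting complex, was at 1.79, 2.97 and 1.95 FPKM in knockdown replicates 1, 2 and 3, and at 0.771, 0.763 and 0.605 FPKM in control replicates 1, 2 and 3. The groups did not overlap, and knockdown replicate 2 was the highest. The ratio of means was 3.14 and the log2 change 0.90 (SE 0.125, adjusted p = 0.000196), the largest of the family; it was 1.497 with a pseudocount of 0.1 and 1.63 by voom on recovered reads. Of its exon bases, 32.8% also lie in exons of VIL1 on the opposite strand, a gene not analysed here, and whether counting used strand is not given in the sources used here. USP1 (ENSG00000162607, GRCh38 chromosome 1, 62436297 to 62451804, plus strand), which with its partner WDR48 deubiquitinates FANCD2 and PCNA, had the highest mean level of the family. It was at 48.1, 52.1 and 49.2 FPKM in knockdown replicates 1, 2 and 3, against 28.2, 28.1 and 29.9 FPKM in control replicates 1, 2 and 3. All knockdown values stood well above the control values, with a log2 change of 0.77 (SE 0.0491, adjusted p = 1.58e-06), the lowest adjusted p of the family. USP47, which acts on DNA polymerase beta of base excision repair, was at 5.26, 5.82 and 4.73 FPKM in the knockdown and at 3.04, 2.96 and 3.12 FPKM in control. Again the groups did not overlap (log2 change 0.63, SE 0.0773, adjusted p = 9.35e-05).

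In the same group USP12, which like USP1 works with WDR48, averaged 15.8 ± 0.764 FPKM in the knockdown, against 10.5 ± 0.525 FPKM in the control (SD, n = 3 each), with a log2 change of 0.54. The large protease USP24 rose by 0.53 on the log2 scale, to 10.97 ± 1.21 FPKM in knockdown against 7.27 ± 0.237 FPKM in control. USP45, a deubiquitinase of the repair nuclease subunit ERCC1, USP28, a stabiliser of MYC, and USP11, which acts on the BRCA2 pathway, rose by 0.33, 0.21 and 0.19 on the log2 scale. The USP11 call was lost without knockdown replicate 3, control replicate 1 or control replicate 3 (adjusted p = 0.071, 0.0691 and 0.0747). USP46, the close relative of USP12, was at 2.06 ± 0.0489 FPKM in the knockdown, against 1.77 ± 0.189 FPKM in the control. Its groups did not overlap, but it did not pass (log2 change 0.15, adjusted p = 0.125), and on a common FPKM sum for every library it did (0.26, adjusted p = 0.022). With the trend over gene length taken out, the USP46 change was 0.03 (adjusted p = 0.74). USP48 averaged 9.94 ± 0.557 FPKM in the knockdown, against 10.4 ± 0.128 FPKM in the control, with overlapping groups.

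**Figure D2:**
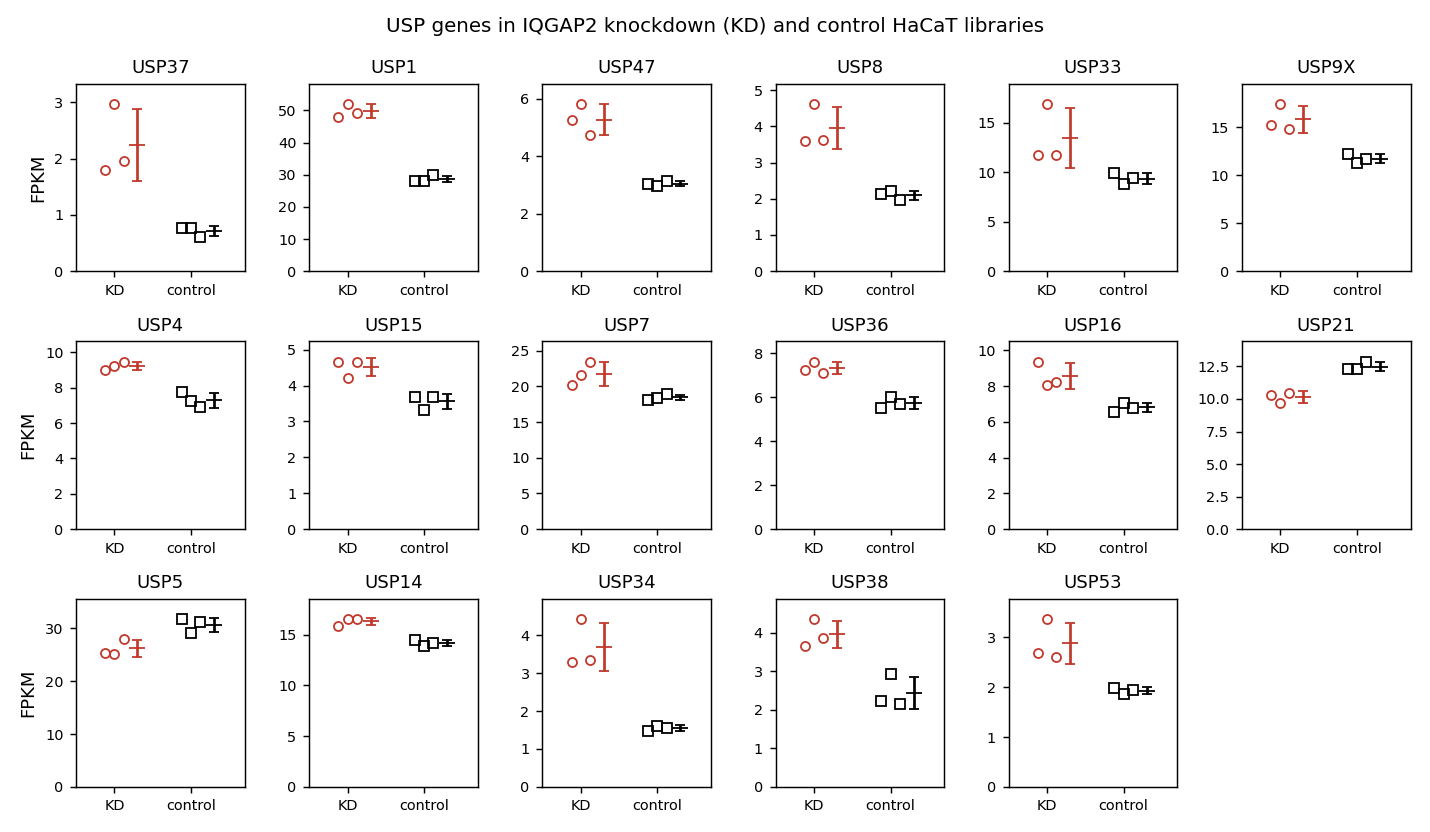
FPKM in each library of 17 called USP genes (up to 3 a role, and the 2 with the highest mean), knockdown (KD, red circles) left of control (black squares), with the group mean and SD (n = 3) as a bar to the right of the points; each panel starts at 0. The groups are separate in every panel, with knockdown above control except for USP21 and USP5. Knockdown replicate 2 (the middle circle) is the highest knockdown library for USP37, USP1, USP47, USP8, USP33, USP9X, USP36, USP14, USP34, USP38 and USP53. It is not for USP4, USP15, USP7, USP16, USP21 and USP5.

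Among USPs of membranes and organelles, 5 of 9 tested were higher (55.6%, against 29.5% of all genes). None was lower (against 27.8%), and the median change was 0.27. USP8, which deubiquitinates EGFR and other cargo at endosomes, was at 3.60, 4.62 and 3.63 FPKM in knockdown replicates 1, 2 and 3, and at 2.13, 2.205 and 1.97 FPKM in control replicates 1, 2 and 3. The groups were separate, with knockdown replicate 2 highest (log2 change 0.67, SE 0.0903, adjusted p = 0.000166). With the trend of change over gene length taken out of each library (the length trend removed) the USP8 change was 0.44. USP33, which acts on receptors including beta-adrenergic receptors, was at 11.7, 16.9 and 11.7 FPKM in the knockdown and at 9.89, 8.81 and 9.40 FPKM in control. Knockdown replicate 2 stood far above its fellows, and the log2 change was 0.46 (SE 0.119, adjusted p = 0.00753). Without that library it was 0.30 and still past the threshold (adjusted p = 0.00163). USP9X, a large X-linked protease with many substrates, was at 15.2, 17.4 and 14.8 FPKM in the knockdown and at 12.2, 11.3 and 11.7 FPKM in control, again without overlap (log2 change 0.40, SE 0.0665, adjusted p = 0.000571, and 0.22 with the length trend removed). USP25 and USP32, which act in degradation from the endoplasmic reticulum and on the late endosome protein RAB7, rose by 0.36 and 0.27 on the log2 scale. USP30, which sits in the outer mitochondrial membrane and restrains mitophagy, was at 3.41 ± 0.0782 FPKM in the knockdown, against 3.82 ± 0.0810 FPKM in the control, without overlap, and missed the threshold (log2 change -0.13, adjusted p = 0.113); with quantile normalization it passed (-0.16, adjusted p = 0.0432). USP19, USP20 and USP35 had overlapping groups, at 8.55 ± 0.660, 7.33 ± 0.433 and 2.86 ± 0.306 FPKM in the knockdown, against 8.19 ± 0.133, 7.16 ± 0.488 and 2.97 ± 0.0784 FPKM in the control.

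Among nuclear regulators of p53, TGF-beta signalling and splicing, 3 of 5 tested rose (60%, against 29.5% of all genes). None fell (against 27.8%), and the median change was 0.22. USP4, which stabilises the TGF-beta type I receptor and also serves the spliceosome, was at 8.997, 9.24 and 9.48 FPKM in knockdown replicates 1, 2 and 3, and at 7.74, 7.25 and 6.89 FPKM in control replicates 1, 2 and 3. USP15, its close relative, was at 4.67, 4.22 and 4.67 FPKM in the knockdown and at 3.68, 3.32 and 3.69 FPKM in control. USP7, the deubiquitinase of MDM2 and p53, was at 20.2, 21.5 and 23.5 FPKM in the knockdown and at 18.2, 18.3 and 18.9 FPKM in control. None of the 3 overlapped between groups, and the ratios of means were 1.27, 1.27 and 1.18 (log2 changes 0.30, 0.27 and 0.22, adjusted p = 0.00178, 0.00756 and 0.00856). With the length trend removed, USP15 and USP7 lost the call, at log2 changes of 0.05 and 0.13 (adjusted p = 0.637 and 0.0858). USP10, a deubiquitinase of p53 bound by the stress granule protein G3BP1, was at 28.4 ± 0.678 FPKM in the knockdown, against 28.3 ± 1.55 FPKM in the control. USP39, a spliceosome protein that lacks protease activity, was at 18.8 ± 0.383 FPKM in the knockdown, against 20.6 ± 1.45 FPKM in the control. Its groups did not overlap, and it did not pass (log2 change -0.12, adjusted p = 0.0893).

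Of 8 USPs of chromatin and the nucleolus tested, 3 were higher (37.5%, against 29.5% of all genes) and 1 lower (12.5%, against 27.8%). The median change of 0.01 was that of all genes, and on the common sum none was lower. USP36, a nucleolar protease, was at 7.21, 7.61 and 7.10 FPKM in knockdown replicates 1, 2 and 3, and at 5.49, 6.0002 and 5.67 FPKM in control replicates 1, 2 and 3. USP16, which deubiquitinates histone H2A, was at 9.38, 8.08 and 8.21 FPKM in the knockdown and at 6.58, 7.07 and 6.79 FPKM in control. Both were separate between groups (log2 changes 0.31 and 0.29, adjusted p = 0.0019 and 0.00481). The USP36 change was 0.18 with the length trend removed. USP21, another H2A deubiquitinase, went the other way, at 10.3, 9.66 and 10.5 FPKM in the knockdown and at 12.3, 12.3 and 12.9 FPKM in control (log2 change -0.27, SE 0.0548, adjusted p = 0.00183). Every knockdown value of USP21 lay below every control value, and the fall was the largest of the family. USP22, the histone H2B deubiquitinase of the SAGA complex, rose by 0.23 on the log2 scale, to 23.2 ± 1.86 FPKM in knockdown against 19.7 ± 0.304 FPKM in control. Its relative USP27X did not pass, at 2.33 ± 0.322 FPKM in the knockdown, against 2.46 ± 0.246 FPKM in the control. USP3, USP42 and USP49 had overlapping groups, with means of 1.95, 3.50 and 0.554 FPKM in the knockdown, against 1.93, 3.63 and 0.547 FPKM in the control.

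Of the 3 USPs of the proteasome and of free ubiquitin, 1 rose, 1 fell and 1 did not pass. Over all genes 29.5% rose and 27.8% fell. USP14, which is bound to the proteasome and trims chains there, was at 15.9, 16.5 and 16.5 FPKM in knockdown replicates 1, 2 and 3, and at 14.4, 13.9 and 14.2 FPKM in control replicates 1, 2 and 3, a rise of 0.19 on the log2 scale (SE 0.0482, adjusted p = 0.00682). USP5, which takes apart unanchored ubiquitin chains, was at 25.4, 25.2 and 28.0 FPKM in the knockdown and at 31.7, 29.2 and 31.2 FPKM in control, and fell (log2 change -0.22, SE 0.0564, adjusted p = 0.00717). Both were separate between groups, in opposite directions. USP13, the relative of USP5, was far lower than either, at 0.908 ± 0.0791 FPKM in the knockdown, against 0.864 ± 0.0491 FPKM in the control, and its groups overlapped.

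In the remaining group, of signalling, junction and less studied members, 3 of 7 tested rose (42.9%, against 29.5% of all genes). None fell (against 27.8%), and the median change was 0.10. With the length trend removed USP31 was lower (log2 change -0.37, adjusted p = 0.00175). USP34 (ENSG00000115464, GRCh38 chromosome 2, 61187463 to 61470769, minus strand), which stabilises axin in the WNT pathway, was at 3.30, 4.42 and 3.35 FPKM in knockdown replicates 1, 2 and 3, and at 1.46, 1.62 and 1.56 FPKM in control replicates 1, 2 and 3. The lowest knockdown value was above the highest control value, the ratio of means was 2.39 and the log2 change was 0.87 (SE 0.0962, adjusted p = 4.91e-05). USP38 was at 3.67, 4.35 and 3.87 FPKM in the knockdown and at 2.24, 2.93 and 2.15 FPKM in control. USP53, a protein of tight junctions, was at 2.68, 3.36 and 2.61 FPKM in the knockdown and at 1.99, 1.87 and 1.95 FPKM in control. Both were separate between groups (log2 changes 0.53 and 0.40, adjusted p = 0.00103 and 0.00294). The USP53 change was 0.24 with the length trend removed. USP54, the relative of USP53, overlapped between groups, at 2.74 ± 0.371 FPKM in the knockdown, against 2.73 ± 0.148 FPKM in the control. USP40 was at 12.6 ± 0.259 FPKM in the knockdown, against 11.7 ± 0.165 FPKM in the control, without overlap, and missed the threshold (log2 change 0.10, adjusted p = 0.101); on the common sum it passed (0.26, adjusted p = 0.00351). USP43 averaged 5.12 ± 0.554 FPKM in the knockdown, against 5.71 ± 0.333 FPKM in the control, with overlap. USP31 was at 4.05, 4.87 and 3.54 FPKM in the knockdown and at 4.94, 5.07 and 4.77 FPKM in control, with knockdown replicate 2 inside the control range. It did not pass (log2 change -0.21, adjusted p = 0.0739), and without knockdown replicate 2 it did (log2 change -0.31, adjusted p = 0.00423). Without knockdown replicate 3 the change was -0.12 (adjusted p = 0.256).

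The 4 members below 0.5 FPKM rested on few recovered reads, between 6 and 46 a library. USP51, related to USP22, was at 0.547, 0.640 and 0.649 FPKM in knockdown replicates 1, 2 and 3, and at 0.297, 0.274 and 0.245 FPKM in control replicates 1, 2 and 3. USP50 was at 0.349, 0.423 and 0.452 FPKM in the knockdown and at 0.165, 0.214 and 0.233 FPKM in control. Neither overlapped between groups, and in the fit without a filter on low values both were past the threshold (adjusted p = 0.00158 and 0.0144). Of the exon bases of USP50, 28.6% also lie in exons of USP8 on the opposite strand. USP2 and USP6 overlapped between groups and did not pass in that fit (adjusted p = 0.0884 and 0.321), at means of 0.259 and 0.212 FPKM in the knockdown, against 0.133 and 0.143 FPKM in the control. USP6 arose in part from USP32, so how reads were divided between them is uncertain.

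Changes of close relatives within the family are set side by side here, and the differences between them were not tested. On the log2 scale USP12 had a change of 0.54 and USP46 of 0.15, and USP4, USP15 and USP11, which form one subfamily, had 0.30, 0.27 and 0.19. The relatives USP25 and USP28 had changes of 0.36 and 0.21, and both rose. USP33, USP53 and USP22 rose, whereas their relatives USP20, USP54 and USP27X did not pass. USP51, also related to USP22, lay below the filter, at a mean of 0.612 FPKM in the knockdown, against 0.272 FPKM in the control. In the limma fit without a filter it was higher (adjusted p = 0.00158).

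Members were long genes, and length moved with the change. The merged exon length of the 42 tested members in GENCODE v29 had a median of 7760 bases, against 5077 over all genes tested. Over the 42 members the Spearman correlation of length with the log2 change was 0.44, and over 11209 genes with a length it was 0.30. These are correlations across genes in the same 6 libraries, given as descriptions. Among genes over 7474 bases 43.3% of genes were higher, and so were 14 of 22 members (63.6%), with median changes of 0.14 over all genes and 0.29 over members. Among genes of 5077 to 7474 bases 31.5% of genes were higher, and so were 8 of 14 members (57.1%), with median changes of 0.04 and 0.19. The 6 members under 5077 bases held 1 riser (USP1) and both fallers, USP21 and USP5. Falls were also more frequent among all genes of these lengths. Up to 3264 bases 17.4% of genes were higher and 43.5% lower, and from 3264 to 5077 bases 26.1% and 31.7%. With the trend over length removed, 21 members were higher and 4 lower (USP21, USP5, USP31 and USP48), against 28% and 28.7% of genes. The median change was 0.14 over members and -0.01 over all genes. By role, risers were then 8 of 10 in genome maintenance, 5 of 9 in membranes and organelles, and 1 of 5 in nuclear regulators. Chromatin held 3 of 8, the proteasome group 1 of 3 and the signalling group 3 of 7. Knockdown replicate 2 was the highest of the knockdown libraries for 18 of the 23 members that rose, and for 28 of the 42 tested. The share over all genes is not given here. On the log2 scale, knockdown replicate 2 minus the mean of replicates 1 and 3 also climbed with length over all genes. Its median was -0.09 up to 3264 bases and 0.10 over 7474 bases. Among members over 7474 bases the median was 0.17. Leaving out knockdown replicate 2 gave 23 members higher and 3 lower, against 29% and 28.6% of all genes, with a median change of 0.17.

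**Figure D3:**
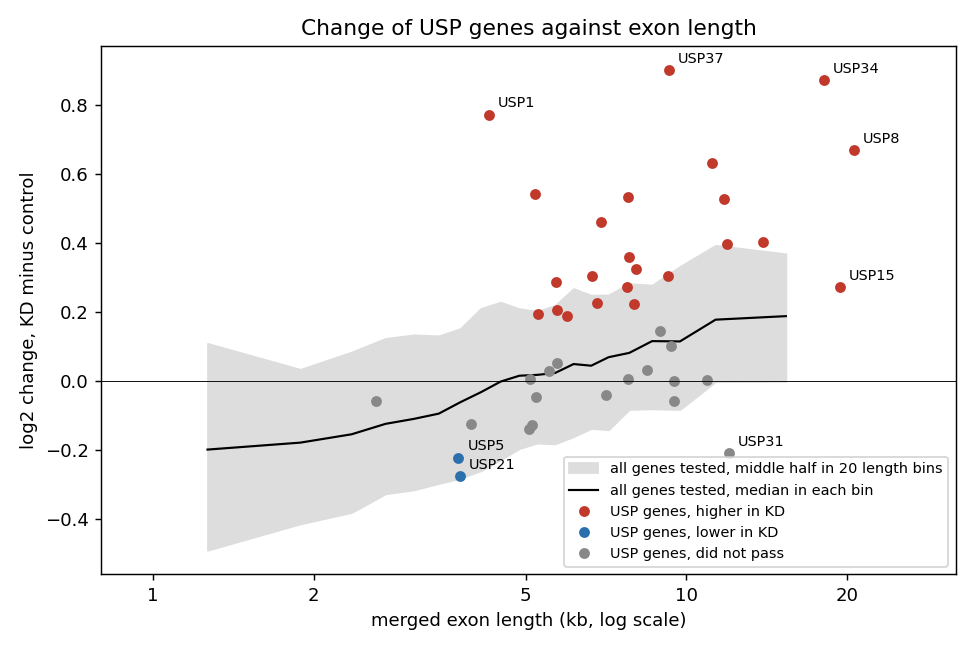
Log2 change (knockdown, KD, minus control) of the 42 tested USP genes against merged exon length (log axis), with the median of all genes tested (line) and their interquartile range (grey band) in 20 bins of length. The line climbs with length; USP37 and USP1, with changes of 0.90 and 0.77, lie above the band and USP31 below it, while USP34, USP8 and USP15 are longer than the middle of the last bin.

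The scale of the values also moved the split between rises and falls. FPKM summed to 234624 to 248082 in knockdown and 271372 to 274709 in control libraries. When every library was rescaled to the same FPKM sum, the median change was 0.14 over all genes and 0.36 over the members, so that the members stood 0.22 above all genes, against 0.19 on the values as deposited. On the common sum 27 members were higher and none was lower, against 43.4% and 16.4% of all genes, and 72.6% of calls over all genes were rises, against 51.5% as deposited. USP21 and USP5 then did not pass, at log2 changes of -0.12 and -0.06 (adjusted p = 0.0926 and 0.384). The changes of USP16, USP22, USP32, USP28, USP11, USP7 and USP14 were over 1.5 times as large on that scale, at 0.44, 0.39, 0.42, 0.36, 0.35, 0.38 and 0.35. Counts elsewhere in the text are for the values as deposited unless stated.

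Promoter sequences of 38 of the 46 members were found in RefSeq (GRCh38.p14), from 250 bases before to 50 bases after the annotated start. Those of USP34, the largest riser among them, and USP21, the largest faller, are shown 5′ to 3′ on the gene's strand, with matches to the motifs searched in capitals. The USP34 window is chr2:61471038-61471337 on the minus strand, and the USP21 window is chr1:161159250-161159549 on the plus strand.
USP34: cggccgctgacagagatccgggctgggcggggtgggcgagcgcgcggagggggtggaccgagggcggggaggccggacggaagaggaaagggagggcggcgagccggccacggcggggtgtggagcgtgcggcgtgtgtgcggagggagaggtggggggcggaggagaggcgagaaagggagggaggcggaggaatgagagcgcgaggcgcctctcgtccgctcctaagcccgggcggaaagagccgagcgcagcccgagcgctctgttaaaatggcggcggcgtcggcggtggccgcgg
USP21: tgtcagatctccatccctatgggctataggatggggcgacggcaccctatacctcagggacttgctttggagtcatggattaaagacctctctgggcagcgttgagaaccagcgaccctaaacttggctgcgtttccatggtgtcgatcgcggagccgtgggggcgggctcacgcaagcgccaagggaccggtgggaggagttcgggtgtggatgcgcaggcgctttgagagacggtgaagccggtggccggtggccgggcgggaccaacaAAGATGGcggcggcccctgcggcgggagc
The motifs searched, on both strands, were CCGGAAG (an ETS site), CACGTG (an E-box), CCAAT (an NF-Y site) and AAGATGG (part of a YY1 site); the letters of these motifs do not overlap one another in the windows shown. USP34 held none of them, and USP21 held AAGATGG at base 272 of the window. Bases G and C made up 74.7% of the USP34 window and 63.7% of the USP21 window. Over the 38 members CCGGAAG was in 10 promoters (26.3%), against 20.4% of the promoters of tested genes and 10.3% of all 35116 promoters. CACGTG was in 3 (7.89%, against 10.2% and 7.26%), CCAAT in 10 (26.3%, against 37.2% and 34.6%) and AAGATGG in 4 (10.5%, against 7.85% and 5.84%). Of the 20 risers with a sequence, 5 held CCGGAAG, 3 CACGTG, 4 CCAAT and 2 AAGATGG. A match describes the letters and is no evidence of binding.

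Genes listed in deubiquitinase classes outside the USP symbols also went more often up than down. Genes were listed by family, and not all are deubiquitinases (PAN2 is a nuclease subunit). Of 33 tested, 16 were higher and 6 lower (48.5% and 18.2%), with a median change of 0.16. For the USP members it was 23 and 2 of 42, with a median of 0.20, and over all genes 29.5% and 27.8%. On the common sum 21 of the 33 were higher and 3 lower, against 43.4% and 16.4% of all genes. The difference between the classes was not tested. CYLD, a USP-type protease of NF-kB signalling without a USP symbol, was at 5.75 ± 0.528 FPKM in the knockdown, against 3.20 ± 0.0512 FPKM in the control (log2 change 0.68, adjusted p = 4.07e-05), and PAN2, a poly(A) nuclease subunit with a USP-like domain, rose by 0.50 on the log2 scale. In the OTU class 7 of 14 rose (50%) and 4 fell (28.6%, near the share of all genes). OTUD1 was at 24.7 ± 0.692 FPKM in the knockdown, against 54.6 ± 2.93 FPKM in the control (log2 change -1.11, adjusted p = 1.99e-07), while OTUD6B rose by 0.64. In the Josephin class JOSD1 rose by 0.45 and JOSD2 fell by 0.39 on the log2 scale, of 3 tested. Of 7 JAMM metalloproteases 4 rose and 1 fell, among them MYSM1, an H2A deubiquitinase, with a change of 0.34, and MPND with -0.30. MINDY2 and MINDY3 rose by 0.50 and 0.31, of 4 tested in their class, and neither of the 2 UCH proteases tested passed.

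**Figure D4:**
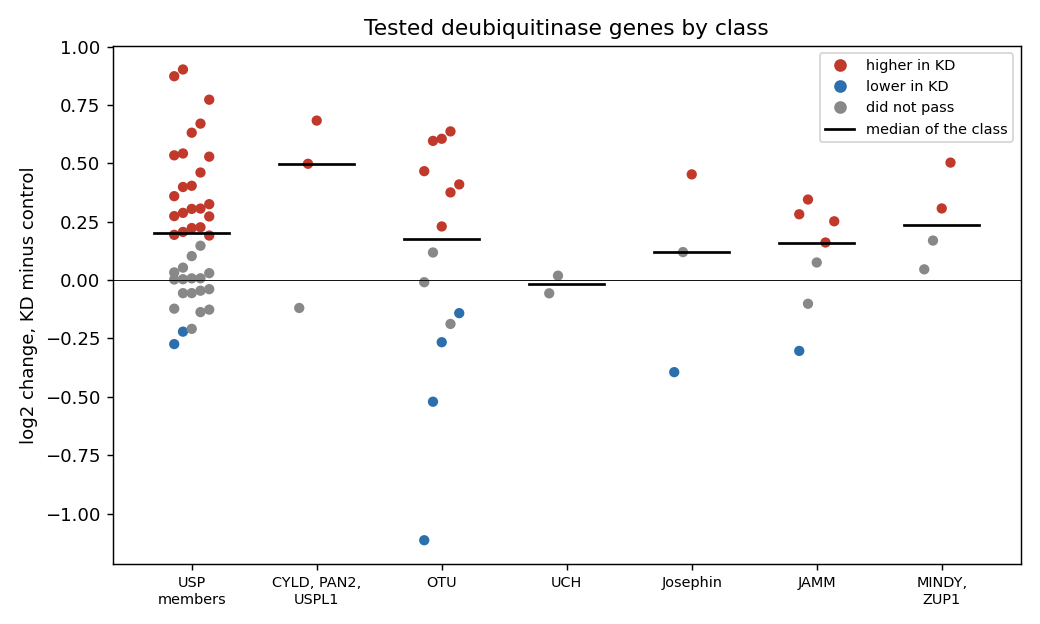
Log2 change (knockdown, KD, minus control) of each tested gene listed in a deubiquitinase class, coloured by the call of limma, with the class median as a black line. The median is 0.20 for the 42 USP members and 0.17 for 14 OTU genes, and OTUD1, at -1.11, lies below every USP member.

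Other genes of the ubiquitin pathway moved in both directions. Of 10 USP partners, 4 rose and 1 fell, against 29.5% and 27.8% of all genes. The counts were 7 and none on the common sum (43.4% and 16.4% of all genes). With the length trend removed they were 3 and 3 (28% and 28.7% of all genes). STAM2, which binds USP8 at endosomes, and G3BP1, which binds USP10, rose by 0.40 and 0.38 on the log2 scale. WDR48, the activator shared by USP1, USP12 and USP46, was at 6.21 ± 0.431 FPKM in the knockdown, against 5.42 ± 0.0927 FPKM in the control, and missed the threshold (log2 change 0.17, adjusted p = 0.0518). ENY2, of the SAGA module of USP22, was the partner that fell (log2 change -0.26). On the common sum WDR48 passed and ENY2 did not (log2 changes 0.31 and -0.11, adjusted p = 0.00578 and 0.178). With the length trend removed ENY2 passed and WDR48 did not (log2 changes -0.32 and 0.09, adjusted p = 0.00057 and 0.232). WDR48 and ENY2 were named after their values were seen. The polyubiquitin gene UBB fell by 0.28 on the log2 scale. Among 30 ubiquitin-conjugating E2 enzymes 10 rose (33.3%, against 29.5% of all genes) and 4 fell (13.3%, against 27.8%), with a median change of 0.08. The share of E2 risers was thus near that of all genes. On the common sum 16 rose and 2 fell, against 43.4% and 16.4% of all genes. UBE2T, the E2 that monoubiquitinates FANCD2 and so works against USP1, fell by 0.67, and UBE2E1 rose by 0.53.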

How the data were processed

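Libraries were made with an Illumina TruSeq RNA kit from RNA isolated with TRIzol, per the labels' protocols. The authors deposited FPKM values, 1 row per gene; HISAT2 2.2.1 and GRCh38 were used, per the submitters' processing notes, while the sources used here do not name the counting program, annotation, strand setting or depth. Every gene had a mean of at least 0.1 FPKM.

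Knockdown was compared with control by limma 3.58.1 (R 4.3.3) on log2(FPKM + 1), with a mean-variance trend, for genes that averaged 0.5 FPKM or more; tests were two-sided. The exact permutation test of 3 against 3 libraries cannot go below p = 0.1 and was not used. Whole reads were recovered from the FPKM steps for all 12829 genes within 0.004 reads. They were used for depth, library agreement and an alternative with voom. A divisor common to all 6 libraries cannot be seen in these steps. Lengths and coordinates are of GENCODE v29, which gave a constant depth within 10% for 85.1% of genes and 37 of 46 members. Relative to the median gene, reads per FPKM and base were 0.518 for USP6, 0.508 for USP54, 1.81 for USP13 and 2.08 for USP50. A divisor left in the reads and a difference in length were not told apart, and reads were not corrected. Length trends were removed by loess with a span of 0.5. The limma script was tested on simulated data.

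The members, lists and roles were chosen with earlier results of these data known. Values in each library were given for up to 3 called members a role with separate groups and the 2 members with the highest mean; those of USP31, USP50 and USP51 were added after their values were seen. Of other lists up to 2 called genes were named. Protein sequences were not used here, and the list of ubiquitin precursor and E1 genes is not reported here as a whole.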

Additional observations from a re-analysis of the deposited data

How the results depend on the processing

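Across 16 alternatives, 20 of the 25 called USP members passed in every alternative that tested them and none changed sign; the 5 that lost the call were USP11, USP15, USP7, USP21 and USP5, as given above. With a mean of at least 5 FPKM required, 24 members were tested. Of these, 15 were higher and 2 lower, against 32.4% and 33.5% of all genes. The count of lower members was 0 on a common sum (16.4% of all genes) and 4 with quantile normalization (28.3%). It was also 4 with the trend over length removed, alone (28.7%) or together with the replicate block (28.2%). The median was 0.36 on a common sum and 0.14 with the length trend removed, with or without the block. Leaving out each library in turn gave 22 to 23 higher, 2 to 3 lower and medians of 0.17 to 0.22. Over all genes these fits gave 24.8% to 29% higher and 23.9% to 28.6% lower. Same-numbered libraries did not deviate together (correlations -0.0667, -0.0382 and 0.0189), and pairs of different number gave -0.0427 to 0.0805. With 3 libraries a group this cannot exclude a shared culture or batch, and the labels do not say whether numbers pair libraries. The replicate block alone gave 23 higher and 2 lower, against 28.2% and 27% of all genes. Among members that did not pass, USP30 and USP39 had log2 changes of 0.0039 and 0.0362 on a common sum, and USP40 had -0.0209 with the length trend removed; under the replicate block with the length trend removed USP40 had -0.0209 as well. The cause was not tested. USP31 and USP46 kept their sign, and USP30, USP40, USP46 and USP31 each passed in at least 1 alternative. Of the other 12 that did not pass, 11 changed sign somewhere, and USP10, USP19 and USP48 passed in at least 1 alternative. Of 16 genes of other lists recomputed under these alternatives, MPND and UBB lost the call with a common sum or the length trend removed, and MPND also with voom (adjusted p = 0.0554). Voom on recovered reads, chosen after seeing the data, gave 23 higher and 3 lower, against 30.5% and 28.4% of all genes. The count models planned were not run, since the deposited unit is FPKM.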
